A study of Mus musculus with 5 samples.

Results

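The genes described here are imprinted growth-control genes, read in the RNA of sorted mouse HSPCs, the stem and progenitor cells of blood. The 10 members were chosen by symbol from what is known of mouse imprinting (Ndn, Cdkn1c, Grb10, Igf2r, Plagl1, Peg3, H19, Meg3, Snrpn and Impact), and 5 of them are among the 11352 genes of the table: Ndn, Cdkn1c, Grb10, Igf2r and Impact. Plagl1, Peg3, H19, Meg3 and Snrpn are not listed in the table used here, so no level is given for them. Each gene of the table exceeds a value of 1 in 3 or more libraries.

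The libraries came from 2 groups of mice, all with Cux1 knocked down: 2 libraries with the knockdown alone (Cux1-low) and 3 that also carry NrasG12D (Cux1-low;NrasG12D, shortened to NrasG12D libraries). CUX1 is a DNA-binding homeodomain protein. NrasG12D is a mutant of the RAS family GTPase NRAS that stays active and drives leukaemia. Both groups had been given doxycycline and pI:C, an RNA mimic of viral infection, over 4 weeks. The sort kept cells with KIT and SCA1 and without lineage markers or CD135. Strain and age, what drives the knockdown and the NrasG12D allele, and whether each library came from 1 animal are not given in the sources used here, so p-values measure only the spread between these samples, which may be technical. No library with normal Cux1 was analysed here, so the comparison asks only what goes with NrasG12D in cells that already have the knockdown.

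An imprinted gene is transcribed mainly or only from the copy of one parent, because a mark set in the egg or the sperm, mostly DNA methylation, tells the parental copies apart. Many imprinted genes act on growth, and several are known for high expression in quiescent tissue stem cells, long-term haematopoietic stem cells among them. In the mouse, Ndn and Impact are expressed from the paternal copy, and Cdkn1c, Igf2r and, in most tissues, Grb10 from the maternal copy. The table gives 1 level per gene, so which copy the RNA came from was not measured.

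Promoter sequences show the CpG dinucleotides, the kind of site that can carry DNA methylation, near the start of these genes. Methylation was not measured, so the CpGs printed here are not shown to carry an imprint. Promoters from 250 bases before to 50 bases after the start were taken for 3 of the 5 genes, Ndn, Grb10 (2 starts) and Igf2r. They came from RefSeq's table (build GRCm38.p6). Whether that table also holds promoters of the other genes is not reported here. Each promoter shown is printed on its gene's own strand, with every CpG in capitals.

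Ndn, chr7:62348027-62348326, plus strand: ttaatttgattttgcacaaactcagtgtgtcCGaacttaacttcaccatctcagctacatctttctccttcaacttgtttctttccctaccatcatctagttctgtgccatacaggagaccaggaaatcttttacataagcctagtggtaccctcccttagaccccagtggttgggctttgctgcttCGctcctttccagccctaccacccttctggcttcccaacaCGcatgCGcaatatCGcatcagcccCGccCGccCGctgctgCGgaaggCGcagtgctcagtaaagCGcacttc

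Grb10, chr11:12037371-12037670, minus strand: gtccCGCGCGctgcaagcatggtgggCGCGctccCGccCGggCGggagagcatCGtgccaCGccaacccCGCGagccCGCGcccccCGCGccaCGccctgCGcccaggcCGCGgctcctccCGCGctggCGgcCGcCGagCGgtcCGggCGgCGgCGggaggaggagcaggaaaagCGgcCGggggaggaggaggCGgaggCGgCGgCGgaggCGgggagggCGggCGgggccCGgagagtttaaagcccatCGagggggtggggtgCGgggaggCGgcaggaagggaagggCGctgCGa

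Igf2r, chr17:12769657-12769956, minus strand: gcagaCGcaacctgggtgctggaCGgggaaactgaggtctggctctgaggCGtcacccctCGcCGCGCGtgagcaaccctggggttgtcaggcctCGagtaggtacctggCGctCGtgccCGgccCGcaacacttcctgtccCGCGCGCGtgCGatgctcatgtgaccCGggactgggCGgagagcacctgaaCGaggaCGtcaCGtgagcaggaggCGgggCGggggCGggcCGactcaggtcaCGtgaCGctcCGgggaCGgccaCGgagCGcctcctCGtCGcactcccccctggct

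The Grb10 promoter held 45 CpGs in 300 bases, more than 98.1% of the 32851 promoters in the table, and the Igf2r promoter held 34, more than 92.3%. The Ndn promoter held 11, more than 58.6%, where the median promoter held 7. A second Grb10 start (chr11:12027922-12028221) held 9. Motifs were searched on both strands. The letters GCATGCGC, the core bound by the factor NRF1, occurred once in the Ndn promoter and in 2.71% of all promoters. The letters GGGCGG, the GC box bound by SP1, occurred at 2 places in the Ndn promoter, at 5 in the upstream Grb10 promoter and at 3 in the Igf2r promoter, and in 35.7% of all promoters. TGCCGC, the core letters bound by ZFP57, a keeper of methylation imprints, occurred once in the upstream Grb10 promoter and in 11.6% of all promoters. TCACGTGA, an extended E-box, occurred at 2 places in the Igf2r promoter and in 0.974% of all promoters, and both places overlap a plain CACGTG, which 7.15% of promoters hold. ATCGAT, letters of a CUX1 site, was in none of the 4 windows and in 0.925% of all promoters. These matches describe letters only and are no evidence of binding.

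Levels are the authors' normalized CPM, that is counts per library size after a correction factor for each library. In the libraries, 1 read was worth 0.0481 to 0.0608 normalized CPM, and 16489711 to 20262498 reads fell on the listed genes. Fold changes of the 3 NrasG12D over the 2 Cux1-low libraries were fitted with limma on log2(normalized CPM + 1), with p-values adjusted over all 11352 genes. This scale understates the change of low genes. NrasG12D library 3 stood apart from the other NrasG12D libraries. On the first principal component, with 73.8% of the variance, it lay at -4.16, while libraries 1 and 2 lay at 29.1 and 38.0 and the Cux1-low libraries at -32.8 and -30.1. Results are therefore given with and without it.

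Of the 5 listed genes, 1 fell in the NrasG12D libraries, none rose and 4 did not pass the test (limma adjusted p under 0.05). Over all genes, 0.872% fell and 0.255% rose by this rule. For Ndn, Cdkn1c and Grb10 every NrasG12D library lay below both Cux1-low libraries, which also held for 27.0% of all genes. Igf2r and Impact overlapped between the groups. Without NrasG12D library 3, Ndn, Cdkn1c and Grb10 fell, in a fit in which 19.4% of all genes fell.

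Ndn (ENSMUSG00000033585.5, chromosome 7, 62346569 to 62350262, plus strand) encodes necdin, a protein of the MAGE family that binds E2F1 and p53 and is known as a brake on the proliferation of haematopoietic stem cells. Its level was 13.04 and 18.2 normalized CPM with Cux1-low alone and 1.23, 1.88 and 4.37 in NrasG12D libraries 1, 2 and 3. All 3 NrasG12D libraries were low, and library 3 was the highest of them, still below both Cux1-low libraries. These values stood for 266 and 378 reads against 24, 33 and 72. The group means were 15.6 ± 3.65 (SD, n = 2) and 2.496 ± 1.66 (SD, n = 3), 6.26-fold lower with NrasG12D. The log2 fold change was -2.33 (SE 0.39, 95% interval -3.25 to -1.42, limma adjusted p = 0.0498), and only 0.0881% of all genes had a lower one. The call is close to the threshold: it was lost (limma adjusted p of 0.0510 to 0.0588) with a pseudocount of 0.1 or 0.5, a minimum mean of 5, no variance trend or robust limma, and also without either Cux1-low library, NrasG12D library 1 or NrasG12D library 2 (limma adjusted p of 0.0921 to 0.365). Without NrasG12D library 3 the log2 fold change was -2.69 (limma adjusted p = 0.00144). In the authors' deposited table it was -2.65 (adjusted p = 3.93e-05), where 9.14% of all genes were called lower.

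**Figure D1:**
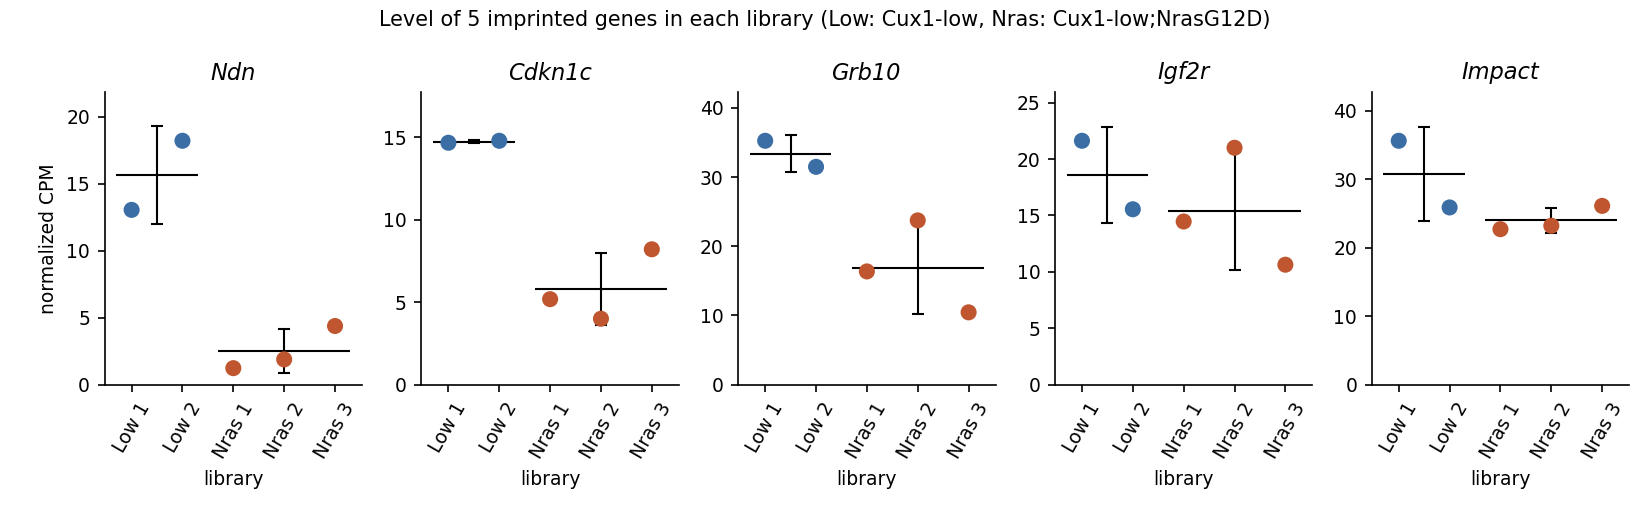
Level of each of the 5 listed genes (normalized CPM, vertical axis from 0) in every library, with Cux1-low in blue and NrasG12D in orange, group means as lines and SDs as bars. Ndn, Cdkn1c and Grb10 are lower in every NrasG12D library, and library 3 is the highest NrasG12D library for Ndn (4.37) and the lowest for Grb10 (10.4).

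Cdkn1c (ENSMUSG00000037664.13, chromosome 7, 143458339 to 143461050, minus strand) encodes p57, an inhibitor of cyclin-dependent kinases that is known to keep haematopoietic stem cells quiescent. The Cux1-low libraries were almost level, at 14.7 and 14.8 normalized CPM, and the NrasG12D libraries were at 5.18, 3.99 and 8.20. The groups did not overlap, and library 3 again had the highest value of its group. The mean was 2.54-fold lower with NrasG12D (14.7 ± 0.0847, n = 2, against 5.79 ± 2.17, n = 3). The log2 fold change of -1.26 (SE 0.28, 95% interval -1.92 to -0.60) did not pass over all genes (limma adjusted p = 0.0675). Without library 3 it was -1.50 (limma adjusted p = 0.00289), and in the authors' deposited table it was -1.35 (adjusted p = 0.00344). Of the 2039 exonic bases of Cdkn1c, 625 overlap the antisense gene model Gm44732 in GENCODE. The sources used here do not say if reads were counted by strand, so reads from the antisense model could not be told apart.

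Grb10 (ENSMUSG00000020176.17, chromosome 11, 11930508 to 12038683, minus strand) encodes an adaptor that binds the insulin and IGF1 receptors and damps their signal. Grb10 stood at 35.2 and 31.5 normalized CPM with Cux1-low alone and at 16.4, 23.7 and 10.4 with NrasG12D. The groups did not overlap, but here library 3 was the lowest of all 5 libraries, where for Ndn and Cdkn1c it was the NrasG12D library nearest to Cux1-low. The mean was 1.98-fold lower (33.4 ± 2.66 against 16.8 ± 6.66, SD, n = 2 and 3). Its log2 fold change was -1.01 (SE 0.31, 95% interval -1.74 to -0.28, limma adjusted p = 0.0938). Without library 3 the change was smaller, at -0.73, while the spread was smaller too and the gene passed (limma adjusted p = 0.0279). The authors' deposited table gives -0.98 (adjusted p = 0.0317).

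Igf2r (ENSMUSG00000023830.14, chromosome 17, 12682406 to 12769664, minus strand) encodes the mannose 6-phosphate receptor, which sorts lysosomal enzymes and removes IGF2 from the cell surface. Igf2r was at 21.6 and 15.5 normalized CPM with Cux1-low alone and at 14.5, 20.999 and 10.6 with NrasG12D. The groups overlapped, and library 3 was the lowest, as for Grb10. The log2 fold change was -0.29 (SE 0.29, 95% interval -0.98 to 0.40, limma adjusted p = 0.513), an interval that holds 0 and reaches to -0.98. It was -0.07 without NrasG12D library 3 and also without Cux1-low library 1, and -0.53 without NrasG12D library 2 and -0.52 without Cux1-low library 2, so its size rested on single libraries. The antisense RNA Airn, which overlaps part of Igf2r without sharing exonic bases with it, is not listed.

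Impact (ENSMUSG00000024423.6, chromosome 18, 12955852 to 12992950, plus strand) encodes a protein that competes with the kinase GCN2 for its activator GCN1. The Cux1-low libraries were at 35.6 and 25.9 normalized CPM, and the NrasG12D libraries stood at 22.7, 23.2 and 26.1. NrasG12D library 3 lay just above Cux1-low library 2, so the groups overlapped, and Cux1-low library 1 was the highest. The log2 fold change was -0.33 (SE 0.18, 95% interval -0.75 to 0.09, limma adjusted p = 0.240). Without Cux1-low library 1 the log2 fold change was -0.11 and without Cux1-low library 2 it was -0.55, so the size of this value rested on which Cux1-low library was used. Without NrasG12D library 3 it was -0.39 (limma adjusted p = 0.127).

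**Figure D2:**
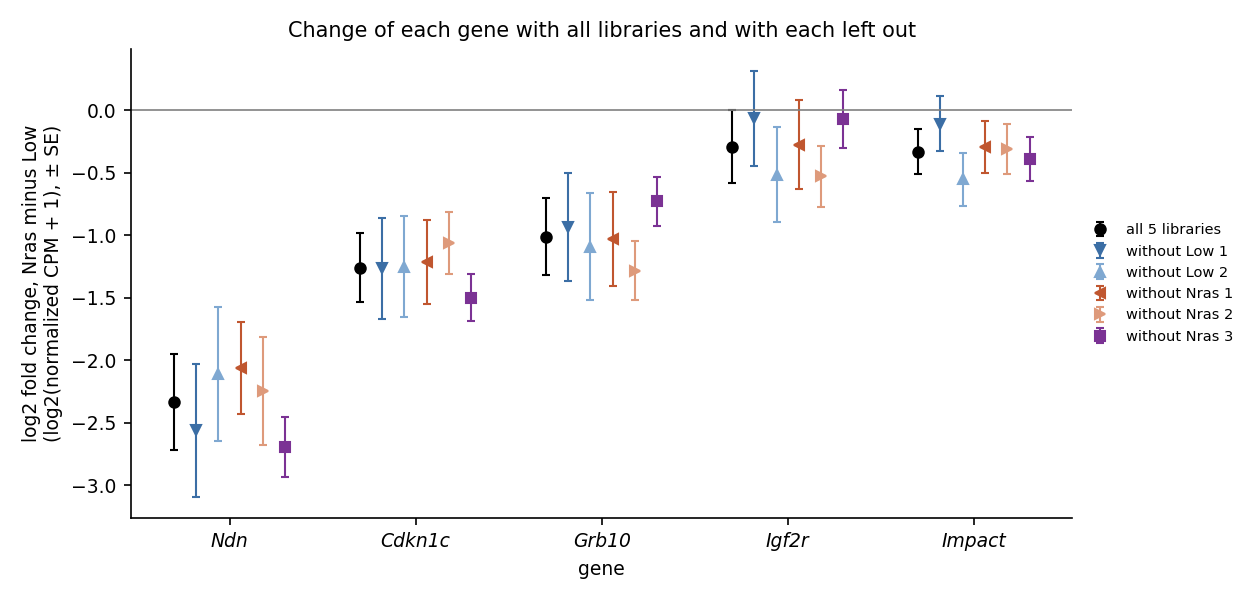
Log2 fold change of the 5 genes (vertical axis, on log2(normalized CPM + 1), bars are SEs) with all 5 libraries in black and with each library left out in colour. Ndn, Cdkn1c and Grb10 stay below 0 in all 6 fits, while Igf2r and Impact move close to 0 without Cux1-low library 1.

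Levels of different genes were compared per kilobase of exon (normalized CPM per kb). In the Cux1-low libraries the order was Cdkn1c at 7.22 ± 0.0416 (SD, n = 2), Impact at 5.999 ± 1.34, Ndn at 4.23 ± 0.987, Grb10 at 3.67 ± 0.293 and Igf2r at 1.996 ± 0.461. The ranges of Ndn and Grb10 overlapped, and those of the other neighbours in this order did not. In the NrasG12D libraries Impact was highest at 4.68 ± 0.358 normalized CPM per kb (SD, n = 3), followed by Cdkn1c at 2.84 ± 1.06, Grb10 at 1.85 ± 0.732, Igf2r at 1.65 ± 0.563 and Ndn at 0.676 ± 0.449. There the ranges of all neighbours overlapped except those of Impact and Cdkn1c. Ndn thus went from the third place to the last.

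Other imprinted genes were read as a list of 70, of which 33 were listed in the table. The list was written from general knowledge of mouse imprinting, but with earlier results of these data known. Several of these are imprinted only in some tissues, such as brain or placenta. None passed in the NrasG12D comparison (limma, 0 of 33), while 13 had an unadjusted p under 0.05 with a lower and 3 with a higher value, against 16.5% and 14.8% of all genes. Their median log2 fold change was -0.29, and 24 of 33 had a negative sign. Over all genes the median was -0.003 and 50.3% were negative. The NrasG12D libraries lay below both Cux1-low libraries for 16 of the 33 genes and above them for 7, against 27.0% and 26.5% of all genes. Without NrasG12D library 3, 16 fell and 4 rose, in a fit where 19.4% of all genes fell and 18.0% rose. The authors' deposited table has 7 of them lower and 0 higher (adjusted p under 0.05), against 9.14% and 6.97% of all genes.

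The 6 other imprinted genes with the smallest p all had lower values in every NrasG12D library. Herc3, a ubiquitin ligase gene, was at 33.4 and 24.8 normalized CPM with Cux1-low alone and at 12.6, 17.5 and 16.0 with NrasG12D (log2 fold change -0.88, limma adjusted p = 0.0726). Slc22a18, a transporter gene next to Cdkn1c, was at 8.53 and 8.90 against 4.46, 2.40 and 4.07 (log2 fold change -1.10, limma adjusted p = 0.0727). For these genes library 3 lay within the range of libraries 1 and 2. Sgce, which encodes epsilon-sarcoglycan, was at 31.6 and 28.5 against 7.49, 6.22 and 19.5, and had the most negative log2 fold change of the 33 (-1.52, limma adjusted p = 0.0846). Axl, a receptor tyrosine kinase gene, was at 17.8 and 13.5 against 5.08, 5.25 and 10.6 (limma adjusted p = 0.0875). The noncoding RNA Peg13, which lies inside Trappc9 without sharing exonic bases, was at 117 and 125 against 42.8, 43.8 and 96.6 (limma adjusted p = 0.0978). In Sgce, Axl and Peg13, library 3 sat between the other NrasG12D libraries and the Cux1-low libraries. Without library 3 all 6 fell, with limma adjusted p of 0.000929 for Peg13 to 0.0191 for Mkrn3.

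Ndn lies in a run of imprinted genes on chromosome 7 with Magel2, Mkrn3 and Peg12. Magel2 is not listed, and Mkrn3 and Peg12 were the only listed genes within 1 Mb of Ndn. Mkrn3, a ring finger gene, was at 3.82 and 6.55 normalized CPM with Cux1-low alone and at 1.95, 1.48 and 2.79 with NrasG12D (log2 fold change -0.99, limma adjusted p = 0.0938). Peg12, an activator of WNT signalling, was at 3.04 and 4.91 against 1.38, 1.71 and 2.67 (log2 fold change -0.77, limma adjusted p = 0.139). All 3 genes of the run were lowest in NrasG12D libraries 1 and 2, higher in library 3, and highest in Cux1-low library 2. Peg12, like the other neighbours below that the rule for named genes does not cover, was chosen after its values were seen. Farther along the chromosome, Ube3a, the ubiquitin ligase gene of the Angelman region, was at 161 and 153 against 140, 154 and 171 (log2 fold change -0.02, limma adjusted p = 0.907).

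**Figure D3:**
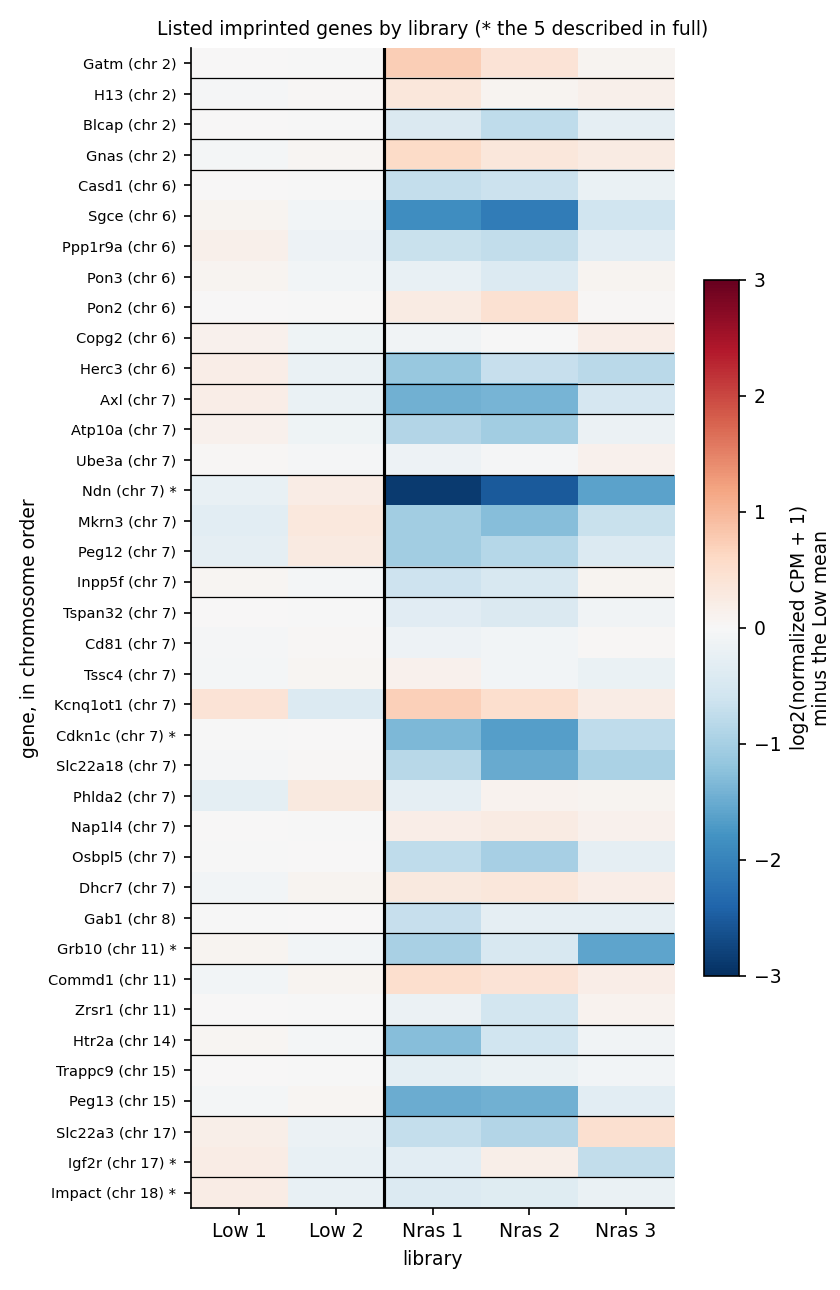
Listed imprinted genes (rows, in chromosome order, lines between groups of genes more than 2 Mb apart) in the 5 libraries (columns), as log2(normalized CPM + 1) minus the Cux1-low mean, blue for lower and red for higher. Ndn is the darkest row, Mkrn3 and Peg12 beside it are lower in all 3 NrasG12D libraries, and Grb10 is lowest in library 3.

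Around Cdkn1c the imprinted genes differed in the direction of their values. Within 1 Mb of Cdkn1c 17 other genes were listed, 9 of them imprinted, and 0 passed (limma, 6 lower and 2 higher at an unadjusted p under 0.05, against 16.5% and 14.8% of all genes, and 4 lower in the authors' deposited table, against 9.14%). NrasG12D libraries lay below both Cux1-low libraries for 8 of the 17 and above them for 4, against 27.0% and 26.5% of all genes, so the number above was near the share of all genes. Of the 10 listed imprinted genes of this run, Cdkn1c included, 4 lay lower and 2 higher by this rule. Neighbours not on the imprinted list were lower too, among them Tnfrsf26 and Mrgpre (log2 fold change -1.03 and -1.02, limma adjusted p = 0.0581 and 0.0806). Cars, also not on that list, was higher (log2 fold change 0.41). Beside Slc22a18, the lipid transfer gene Osbpl5 was at 35.6 and 36.1 normalized CPM against 20.6, 17.3 and 29.6 (limma adjusted p = 0.107). Phlda2, a placental growth brake, was at 3.04 and 5.15 against 3.13, 4.39 and 4.25, with overlapping groups. Kcnq1ot1, the noncoding RNA that silences this domain on the paternal copy, was at 54.6 and 31.0 against 68.3, 58.7 and 48.4 (log2 fold change 0.48, limma adjusted p = 0.234). Nap1l4, a histone chaperone gene of the same domain, was at 415 and 408 against 475, 492 and 450 (log2 fold change 0.20, limma adjusted p = 0.211). Within 1 Mb of Grb10, 3 genes were listed, and the transcription factor gene Ikzf1 was at 170 and 171 against 186, 221 and 173 (limma adjusted p = 0.368). Next to Igf2r, the transporter gene Slc22a3 was at 263 and 206 against 140, 126 and 322, so that library 3 was here the highest of all. Of 9 listed genes within 1 Mb of Igf2r 0 passed (limma). In every NrasG12D library 2 of them lay lower and 4 higher (27.0% and 26.5% of all genes). The authors' deposited table had 4 of them higher and 0 lower (6.97% and 9.14%). Of 9 listed genes within 1 Mb of Impact 0 passed (limma), and 2 lay lower and 0 higher. The authors' deposited table had 2 of those lower and 0 higher.

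Among the partners of these genes, the lists were also written from general knowledge, with earlier results of these data known. Relatives of necdin had the lowest median of the partner lists. Of 5 MAGE family genes, 4 had lower values in every NrasG12D library (27.0% of all genes) and 0 passed (limma). At an unadjusted p under 0.05, 4 were lower (16.5% of all genes), and 2 were lower in the authors' deposited table (9.14%). Their median log2 fold change was -1.001. Maged1, an adaptor of the p75 neurotrophin receptor, was at 134 and 141 normalized CPM against 46.6, 38.1 and 84.6 (log2 fold change -1.35, limma adjusted p = 0.0695). Maged2 was at 51.7 and 52.9 against 20.6, 18.9 and 31.8 (log2 fold change -1.14, limma adjusted p = 0.0581). Mageh1 and Magee1 had log2 fold changes of -1.001 and -0.69 (limma adjusted p = 0.104 and 0.106). Ndnl2 was at a log2 fold change of 0.17. All of the first 4 fell without NrasG12D library 3, as did 19.4% of all genes.

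Genes of the G1 step that p57 acts on mostly had higher values. Of 18 listed genes in the list of CDK inhibitors and G1 cyclins 0 passed (limma). This list also holds kinase, E2F and pocket protein genes. It mixes brakes and drivers of G1, so its counts give no direction for G1 itself. At an unadjusted p under 0.05, 8 had a higher and 1 a lower value (14.8% and 16.5% of all genes). The authors' deposited table had 4 higher and 1 lower (6.97% and 9.14% of all genes). In all, 14 had higher values in every NrasG12D library and 2 lower, against 26.5% and 27.0% of all genes. E2f1, the S phase factor that necdin binds, was at 77.9 and 65.5 normalized CPM against 118, 116 and 105 (log2 fold change 0.66, limma adjusted p = 0.0542). Cdk4, a G1 kinase gene, was at 703 and 689 against 1062, 979 and 847 (limma adjusted p = 0.0838). Ccne2, which encodes cyclin E2, was at 19.9 and 19.6 against 35.2, 43.1 and 24.7 (limma adjusted p = 0.0997). Rbl2, a pocket protein gene of quiescent cells, was at 178 and 149 against 104, 114 and 130 (log2 fold change -0.49 and limma adjusted p = 0.0838). Without library 3, 8 genes of the list rose and 2 fell, where 18.0% of all genes rose and 19.4% fell.

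The list of IGF and insulin signalling genes, most of them not direct targets of GRB10 or IGF2R, had a median near 0. Of 12 listed, 0 passed (limma), 1 had a lower and 1 a higher value at an unadjusted p under 0.05 (16.5% and 14.8% of all genes), and 1 was higher in the authors' deposited table (6.97%). In every NrasG12D library 1 lay lower and 1 higher, fewer than the 27.0% and 26.5% of all genes, and the median log2 fold change was 0.03. Igf1 and Igf2 are not listed. The genes of the receptors that GRB10 binds, Igf1r and Insr, had log2 fold changes of -0.005 and 0.11 in the authors' deposited table (adjusted p = 0.988 and 0.714). Igfbp7, an IGF-binding protein gene, was at 2.94 and 2.41 normalized CPM against 7.59, 4.17 and 9.17 (log2 fold change 1.07, limma adjusted p = 0.0915). Igf2bp2, an RNA-binding protein gene, was at 5.98 and 5.92 against 2.77, 4.22 and 3.65 (limma adjusted p = 0.123). M6pr, the other mannose 6-phosphate receptor gene, had a log2 fold change of 0.11 and Igfbp4 one of 0.18, both with overlapping groups. Without NrasG12D library 3, 1 of the 12 fell and 0 rose, where 19.4% of all genes fell and 18.0% rose.

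Genes that keep imprints had values in both directions. Of 20 listed, 0 passed (limma), 1 had a lower and 3 a higher value at an unadjusted p under 0.05 (16.5% and 14.8% of all genes), and 1 was higher in the authors' deposited table (6.97%). Of the 20, 3 lay lower and 5 higher in every NrasG12D library (27.0% and 26.5% of all genes), and the median log2 fold change was -0.04. The histone methyltransferase gene Ezh2 was at 140 and 139 normalized CPM against 204, 219 and 163 (limma adjusted p = 0.0920). Trim28, the corepressor that ZFP57 recruits, was at 399 and 421 against 527, 488 and 517 (limma adjusted p = 0.0976). Uhrf1, which guides maintenance methylation, had a log2 fold change of 0.42 and the methylcytosine oxidase gene Tet1 one of -0.76 (limma adjusted p = 0.138 and 0.116). Without NrasG12D library 3, 4 of the 20 fell and 3 rose, where 19.4% of all genes fell and 18.0% rose.

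In the GCN2 pathway that IMPACT restrains, 0 of 11 listed genes passed (limma), 4 had a higher and 1 a lower value at an unadjusted p under 0.05 (14.8% and 16.5% of all genes), and 3 were higher and 1 lower in the authors' deposited table (6.97% and 9.14%). In every NrasG12D library 4 of the 11 lay higher and 3 lower, against 26.5% and 27.0% of all genes, so the number lower was near that share. The effector Atf4 was at 188 and 183 normalized CPM against 253, 236 and 247 (log2 fold change 0.40, limma adjusted p = 0.0726), and the ATF4 target Asns at 128 and 123 against 248, 318 and 165 (limma adjusted p = 0.0840). Trib3, also an ATF4 target, was at 9.71 and 9.96 against 2.97, 2.68 and 4.37 (log2 fold change -1.34, limma adjusted p = 0.0508). Eif2s1, the subunit that GCN2 phosphorylates, had a log2 fold change of 0.40. Without NrasG12D library 3, 2 of the 11 fell and 3 rose, where 19.4% of all genes fell and 18.0% rose. The 8 Sm proteins, the family of the SmN protein that Snrpn encodes, all had a positive sign, with a median log2 fold change of 0.41. For 7 of them every NrasG12D library was higher (26.5% of all genes), and 0 passed (limma). At an unadjusted p under 0.05, 7 were higher (14.8% of all genes), and 3 were higher in the authors' deposited table (6.97%). Snrpb, the closest relative of Snrpn, was at 556 and 548 against 769, 722 and 659 (limma adjusted p = 0.0901). Snrpd3, Snrpd2 and Snrpg had log2 fold changes of 0.47, 0.44 and 0.61. Without library 3, 7 of the 8 rose, as did 18.0% of all genes.

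**Figure D4:**
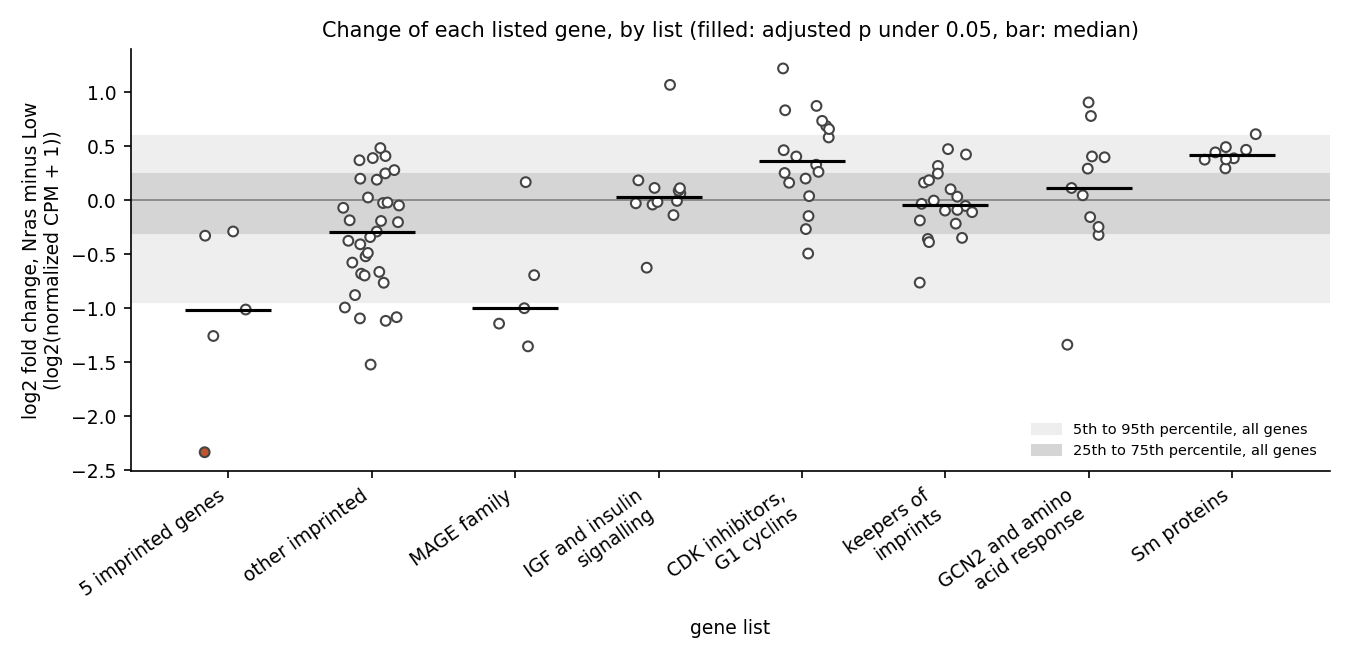
Log2 fold change (vertical axis, on log2(normalized CPM + 1)) of every listed gene of 8 lists, with medians as bars, and grey bands for the spread of all 11352 genes. Ndn is the single filled point, the 5 imprinted genes and the MAGE family have medians near -1.0, and the Sm proteins lie above 0.

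Genes with a pattern most like that of Ndn were sought by the distance between log2 values over the 5 libraries after each gene's mean was subtracted, among 10694 other genes with a mean of at least 4 normalized CPM. Among the 5 nearest were Mmrn1 (distance 0.41), Epb4.1l1 (0.47), Plxdc2 (0.50) and Abcg3 (0.52), while the median gene lay at 2.76. Cdkn1c lay at 1.34 and Grb10 at 2.19. Mmrn1, a gene of platelets and endothelium, was at 410 and 411 normalized CPM with Cux1-low alone and at 68.9, 79.8 and 146 in the NrasG12D libraries. Like Ndn, it was lower in all 3 NrasG12D libraries and least so in library 3, a likeness that follows from how it was chosen.

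The cells were checked against their markers. All 12 genes of the sorted HSPC marker list were listed, the lineage markers Cd3e, Cd4, Cd8a and Ly6g were not. The 12 include Flt3, which encodes CD135, a protein that the sorted cells were selected to lack. In a sorted population, fewer cells of a type and less RNA per cell cannot be told apart. Marker levels differed between the groups beside Ndn, Cdkn1c and Grb10. The counts of markers below stand against 27.0% of all genes with lower and 26.5% with higher values in every NrasG12D library. The summed level of the 12 sorted HSPC markers was 4333 to 4536 normalized CPM with Cux1-low alone and 1744 to 3196 with NrasG12D. Of the 12, 10 were lower and 1 was higher in every NrasG12D library. Of 13 proliferation genes, 11 were higher in every NrasG12D library (3339 to 3537 against 4015 to 5618 summed). Of 10 listed erythroid genes, 9 were higher in every NrasG12D library (4739 to 5189 against 5865 to 11439 summed). The 8 listed B cell genes summed to 58.1 to 79.4 against 60.5 to 551, with library 3 at the Cux1-low level. The 7 listed myeloid genes summed to 7729 to 10851 against 8348 to 19645, with overlapping sums. Of 6 listed stromal and endothelial genes, 4 were lower in every NrasG12D library (349 to 360 against 186 to 303 summed), and Col1a1, Pdgfra and Cdh5 are not listed. Cd3e and the other T cell markers not being listed, 2 genes of the T and NK list were read, and both overlapped between the groups. The part of these shifts in the values of Ndn, Cdkn1c and Grb10 was not tested.

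**Figure D5:**
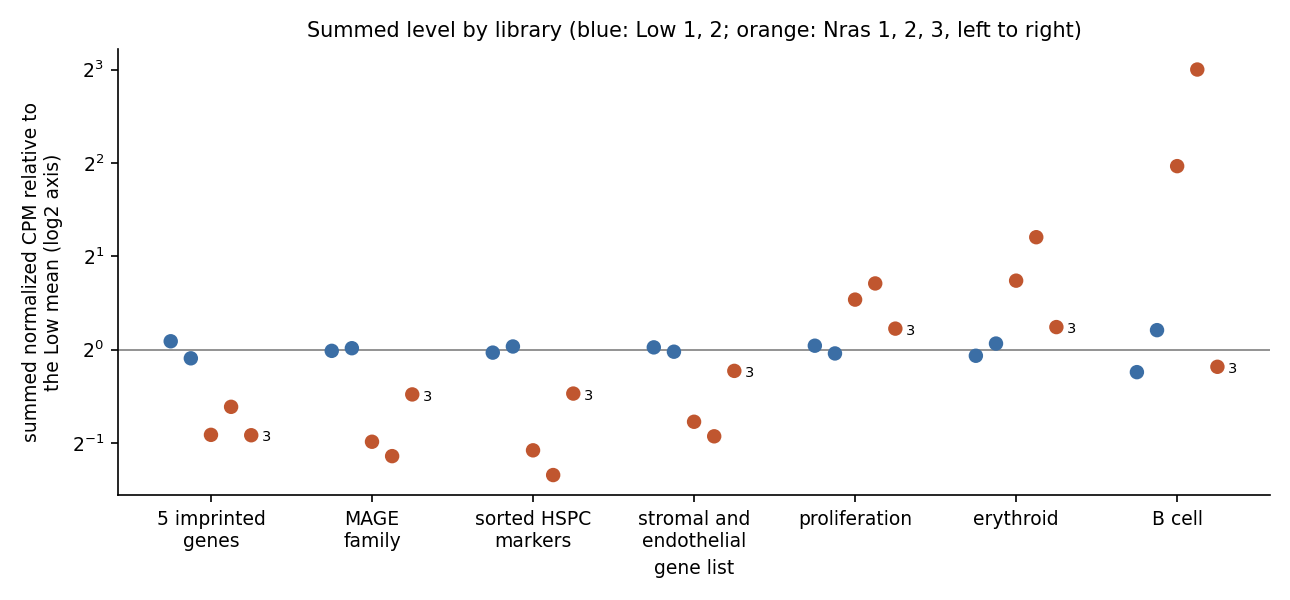
Summed normalized CPM of each gene list relative to the mean of the Cux1-low libraries (log2 axis), with Cux1-low in blue and NrasG12D libraries 1, 2 and 3 in orange from left to right. The 5 imprinted genes sum to 106 to 120 in Cux1-low and 59.8 to 73.8 in NrasG12D libraries, where library 3 (59.8) is as low as library 1, while in the sorted HSPC markers and the MAGE family library 3 is nearest to Cux1-low. The sum hides that the 5 genes differ. Library 3 is the lowest for Grb10 (10.4) and Igf2r (10.6). For Ndn (4.37), Cdkn1c (8.20) and Impact (26.1) it is the highest NrasG12D library.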

How the data were processed

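RNA-seq libraries of polyA RNA were made by the submitters from sorted mouse HSPCs. TopHat, HTSeq and edgeR are named in the submitters' processing notes, as are the builds hg19 and mm10, with neither versions nor roles. The deposited signal values are headed CPM per the file headers, but sum to 971746 to 1026780 per library, so library totals had been multiplied by a factor, and they are called normalized CPM. The authors' deposited table holds per gene also the log2 fold change and log2 mean CPM, the score of a likelihood ratio test, and its p-value before and after adjustment.

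All values were whole multiples of 1 step per library (tolerance 0.01 of a step), which gave the read numbers printed. These read numbers only describe depth, and no count test was run on them. limma 3.58.1 (R 4.3.3, trended variance, Benjamini-Hochberg) was fitted on log2(value + 1) after a filter (a value of 1 or more in 2 or more libraries) that removed 0 genes, and was tested on simulated data. Other steps used matplotlib 3.10.9, scipy 1.17.1, pandas 2.3.3 and numpy 2.4.6 under Python 3.11.15. Chi-square tests found no pair of libraries within sampling noise. Coordinates and exon lengths are from GENCODE M21 (mm10), which matched 11293 of 11352 symbols.

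The members and gene lists were chosen with earlier results of these data known. Named genes were the members, the 6 other imprinted genes and the 4 genes of each partner list with the smallest p, and the 5 genes nearest to Ndn, of which 1 is not reported here.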

Additional observations from a re-analysis of the deposited data

How the results depend on the processing

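Of the 14 alternatives, none changed the sign of any of the 40 named genes (37 with a minimum mean of 5). The number of the 5 listed imprinted genes called was 1 (Ndn), and 0 with a pseudocount of 0.1 or 0.5, a minimum mean of 5, no variance trend or robust limma. Leaving out 1 library gave 0 to 3 of these genes, 0 to 20 of the other imprinted genes (0 with all libraries) and 3 to 4243 of all genes (128 with all libraries). The highest of each came without NrasG12D library 3, and 0 of the 5 genes passed without any one of the other libraries. With every library scaled to a sum of 1000000, 213 of all genes passed. A fit with the replicate number as a replicate block called 3 of the 5 genes, 21 other imprinted genes and 4163 of all genes. In that block NrasG12D library 3 has a number of its own and so does not bear on the fold change. The numbers are shared by only 2 pairs (correlation of deviations -0.19 and -0.004), so the libraries share a number and nothing shows that they are paired. Where 1 Cux1-low library is left, it is assumed to vary like the others. Ndn rests on 24 to 72 reads in the NrasG12D libraries.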
